A study of Mus musculus with 8 samples.

Results

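Cyp1b1 and 7 genes of the aryl hydrocarbon receptor (AhR) pathway were examined in sorted mouse hepatic stellate cells, which store retinoids beside the sinusoids of the liver. Cyp1b1 was chosen by its higher measured value in reverted than in quiescent cells, and the other 7 genes (Cyp1a1, Cyp1a2, Ahr, Ahrr, Arnt, Tiparp and Nqo1) were chosen as its pathway. All 8 were measured, each by a single probe set, among 19938 genes of a whole-transcript array. The reverted group (n = 4 arrays) held cells of male Balb/c mice injured with the liver toxin carbon tetrachloride (CCl4), by 4 injections at 2 a week and 0.5 µl for each g of mouse, that had then rested for 45 days. The quiescent group (n = 4 arrays) held cells of normal male Balb/c mice. The labels give 18 weeks as the age of both groups in one statement and 16 weeks for the reverted mice in another. Cells of both groups were enriched by density, sorted on retinoid autofluorescence and lysed directly. No label says whether an array holds 1 mouse or a pool, so the tests rest on the spread among these 8 arrays, part of which may be technical.

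The AhR is a ligand-activated transcription factor of the bHLH-PAS family. It waits in the cytosol with chaperones, moves to the nucleus when it binds dioxins, polycyclic aromatics or tryptophan metabolites, pairs with ARNT and binds DNA with the core GCGTG. Its classical targets are the CYP1 oxidases, the repressor AHRR and the ADP-ribosyltransferase TIPARP, and the last of these act back on the receptor. CYP1A2 is abundant in hepatocytes, whereas CYP1B1 is known mainly from tissues outside the hepatocyte, where it oxidises estrogens, retinol and polycyclic aromatics.

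The DNA near the annotated starts was compared first for the core that the receptor pair binds, with Cyp1b1 and Cyp1a1, both textbook targets, shown in full. Promoter windows of 300 bases (250 before and 50 after an annotated start, RefSeq, GRCm38.p6) were available for 7 of the 8 genes, all but Ahr. The stretch from base -180 to base -1 of Cyp1b1 (chr17:79715062-79715241, minus strand) and of Cyp1a1 (chr9:57697433-57697612, plus strand) is given below, with the core GCGTG, or CACGC where it lies on the other strand, in capitals.
Cyp1b1: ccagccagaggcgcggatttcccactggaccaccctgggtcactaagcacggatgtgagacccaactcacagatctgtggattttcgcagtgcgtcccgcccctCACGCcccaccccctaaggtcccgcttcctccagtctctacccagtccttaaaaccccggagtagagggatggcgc
Cyp1a1: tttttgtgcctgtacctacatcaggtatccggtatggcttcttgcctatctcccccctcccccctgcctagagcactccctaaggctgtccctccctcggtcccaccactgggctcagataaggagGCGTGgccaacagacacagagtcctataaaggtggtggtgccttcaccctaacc

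The core was found on either strand in the windows of 5 genes: once in Cyp1b1, Cyp1a1, Arnt and Tiparp and 3 times in Ahrr. The windows of Cyp1a2 and Nqo1 did not hold these letters. Each core is shown with 7 bases on either side, turned so that it reads GCGTG, to show the flanks.
Cyp1b1, bases -76 to -72: gggtgggGCGTGaggggcg
Cyp1a1, bases -54 to -50: taaggagGCGTGgccaaca
Ahrr, bases -107 to -103: aaagggcGCGTGgcaggca
Ahrr, bases -82 to -78: aggatgtGCGTGcgccctc
Ahrr, bases -27 to -23: gcggctcGCGTGctggggt
Arnt, bases -29 to -25: gtttgggGCGTGtcttctg
Tiparp, bases -170 to -166: cccgtgcGCGTGctccgga
The longer form TNGCGTG, which contains the core, occurred in 1 of them, the Ahrr core nearest to the start. Of 32851 mouse promoter windows of this length, 32.4% held GCGTG and 5.07% held TNGCGTG on either strand. The NRF2 core TGACNNNGC (12.4% of windows, either strand) occurred only in the window of Arnt, with 2 matches. A TATA box with the letters TATAAA on the gene's own strand (8.32% of windows) occurred in Cyp1a1, Cyp1a2 and Nqo1 and not in Cyp1b1, Ahrr, Arnt or Tiparp. These matches describe the letters only, and their part in the values of the genes was not tested. DNA outside the windows was not searched, so a window without a motif does not show that the gene has none.

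Of the CYP1 oxidases, Cyp1b1 was higher in reverted cells. Its log2 values were 7.04, 7.10, 7.09 and 7.02 in reverted cells and 6.34, 6.35, 6.10 and 6.06 in quiescent cells. The groups did not overlap, and a gap of 0.67 log2 units lay between the lowest reverted and the highest quiescent array. The 4 reverted arrays lay within a narrow range, and among the quiescent arrays the pair numbered 1 and 2 lay above the pair numbered 3 and 4. The means were 7.06 ± 0.04 in reverted and 6.21 ± 0.16 in quiescent cells (SD, n = 4 each), a log2 change of 0.85 or 1.80-fold. This was the 38th largest rise among the 19938 genes, a rank that describes why the gene was picked. No test is given for Cyp1b1, since this difference chose it. Its mean lay at percentile 27.1 of all genes, and its quiescent mean of 6.21 was close to that of Cyp1a1 (6.20). Detection calls were not used here, so the quiescent values cannot be set against background. In bulk samples such as these, more RNA per cell and more cells that carry the RNA cannot be told apart.

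**Figure D1:**
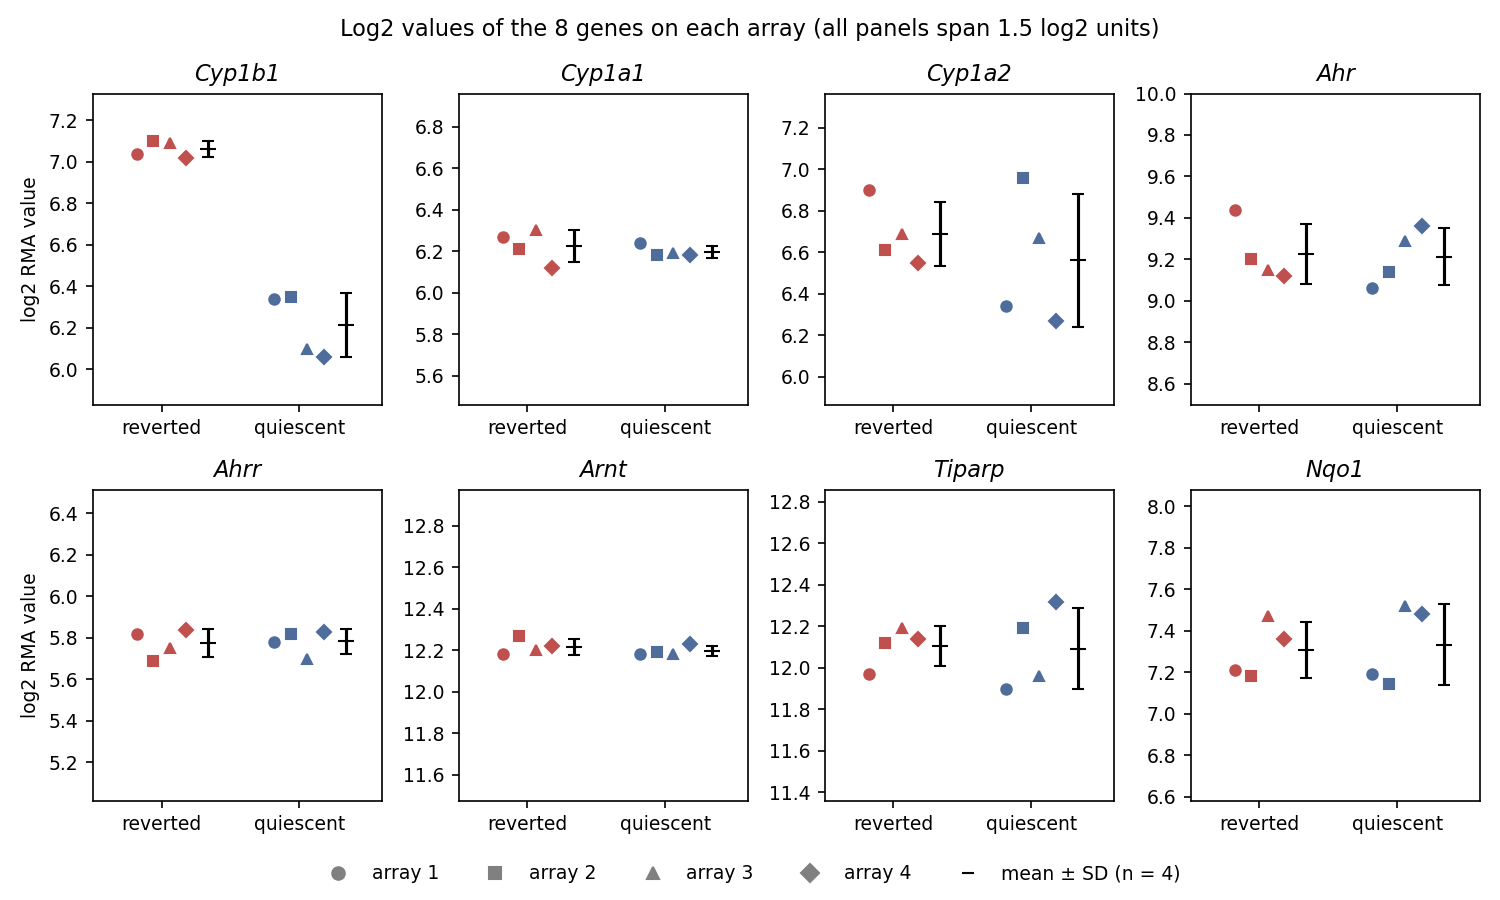
Log2 RMA values (y) of the 8 genes on the 4 reverted (red, left) and 4 quiescent (blue, right) arrays, with the mean ± SD in black. The symbol gives the array number, to which the labels give no meaning across groups. Only the Cyp1b1 panel has groups that do not overlap, with reverted arrays at 7.02 to 7.10 and quiescent arrays at 6.06 to 6.35.

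The other CYP1 genes did not pass the test. Cyp1a1, the classical inducible target of the receptor, had log2 values of 6.27, 6.21, 6.30 and 6.12 in reverted cells and 6.24, 6.18, 6.19 and 6.18 in quiescent cells. The quiescent arrays lay inside the range of the reverted arrays. Its log2 change was 0.03 (SE 0.05, limma adjusted p = 0.8), with a 95% interval from 0.95-fold to 1.09-fold. Its level percentile was 18.6, and detection calls were not used here, so that a dim signal cannot be set against background.

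Cyp1a2 had log2 values of 6.90, 6.61, 6.69 and 6.55 in reverted cells and 6.34, 6.96, 6.67 and 6.27 in quiescent cells. The groups overlapped, and the highest value of all was that of quiescent array 2. The groups differed by a log2 change of 0.13 (SE 0.15, limma adjusted p = 0.676), and the 95% interval ran from 0.87-fold to 1.37-fold, the widest of the 7 pathway genes. Its SD within groups, 0.25 log2 units, was at the 97.3 percentile of all genes. Probe sequences were not used here, and cross-hybridisation between the neighbouring paralogs Cyp1a1 and Cyp1a2 on chromosome 9 was not tested.

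Markers of hepatocytes were set beside the values of Cyp1a2. All 17 measured hepatocyte markers had a higher mean in reverted cells, 0 of them called by limma, with a median log2 change of 0.41. Their mean log2 value per array ran from 8.64 to 9.12 in reverted and from 7.998 to 8.86 in quiescent cells. The quiescent arrays had the same order in both measures: array 2 was highest, then 3, 1 and 4. Among reverted arrays, array 1 was highest in both, and the order of the other 3 differed. With the hepatocyte mean as a covariate the log2 change of Cyp1a2 was -0.21 (adjusted p = 0.17). The part of hepatocyte RNA in the values of Cyp1a2 was not tested. The list of hepatocyte CYP2, CYP3 and CYP4 drug enzymes had 15 of 19 members with a higher mean and a median log2 change of 0.09. In either direction 0 of these enzymes were called, against 0.712% of all genes. Cyp4a12a (0.28, adjusted p = 0.154), Cyp2f2 (0.33, adjusted p = 0.174) and Cyp3a11 (0.25, adjusted p = 0.298) had the smallest p among them.

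**Figure D2:**
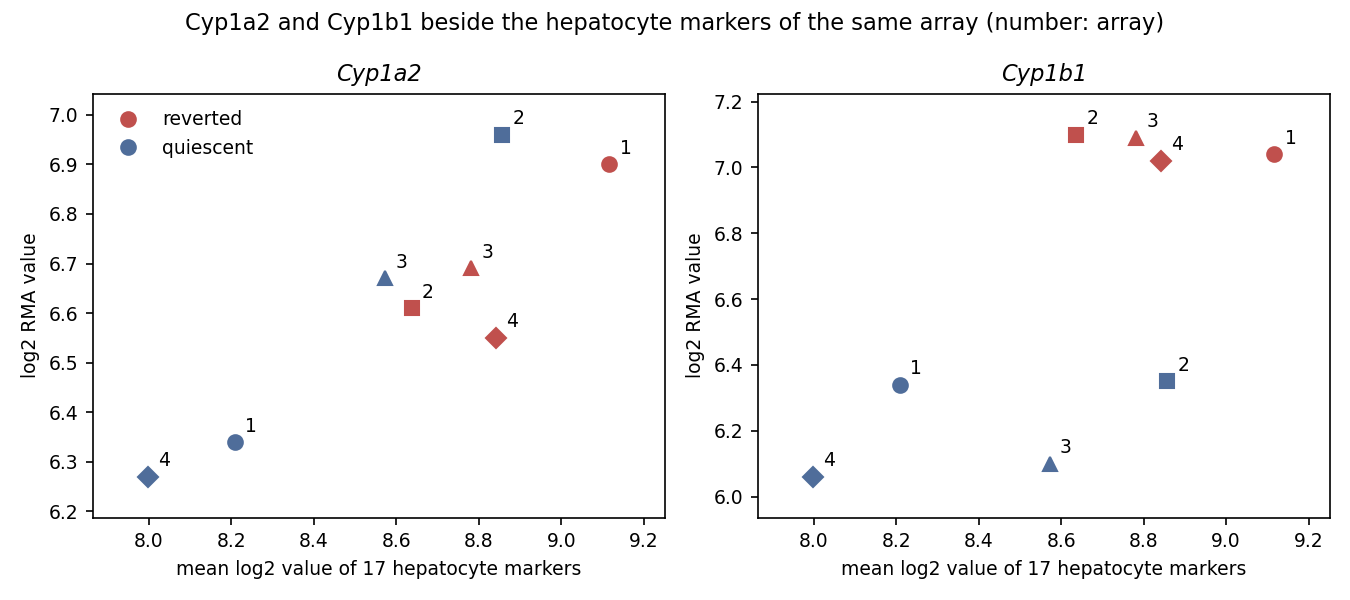
Log2 RMA values (y) of Cyp1a2 (left) and Cyp1b1 (right) against the mean log2 value of 17 hepatocyte markers on the same array (x), for 4 reverted (red) and 4 quiescent (blue) arrays numbered as in the labels. In the left panel the quiescent arrays run from array 4 (7.998, 6.27) to array 2 (8.86, 6.96), and in the right panel the reverted arrays lie at 7.02 to 7.10 and the quiescent arrays at 6.06 to 6.35.

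With the hepatocyte mean as a covariate the log2 change of Cyp1b1 was 0.80, against 0.85 without it. Both values describe the difference that chose the gene, and the part of hepatocyte RNA in it was not tested.

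Other cell types were followed by their markers. Of 16 markers of mesothelium and portal fibroblasts, 2 rose in limma (Dpt and Wt1), against 0.527% of all genes called higher, 0 fell, 4 had a higher mean and the median log2 change was -0.09. Their mean per array was 7.64 to 7.85 in reverted and 7.55 to 7.61 in quiescent cells. Wt1, a mesothelial transcription factor, had 10.07, 9.46, 9.41 and 9.36 in reverted cells and 7.95, 8.35, 8.08 and 8.37 in quiescent cells, whereas the mesothelial marker Msln had means of 6.79 and 6.89 (adjusted p = 0.445). Their part in the difference of Cyp1b1 was not tested. None of 14 endothelial, 15 myeloid, 11 lymphocyte or 7 cholangiocyte markers passed the test, against 0.712% of all genes called. Their median log2 changes were 0.13, -0.04, -0.02 and -0.08. Means were higher for 10 and lower for 4 endothelial markers, and higher for 6 and lower for 9 myeloid markers. Among those with the smallest p, 8.73% of all genes being without overlap, the endothelial Clec4g (0.50, limma adjusted p = 0.063) and myeloid Lyz2 (0.59, adjusted p = 0.129) lay higher without overlap. The lymphocyte marker Ltb (-0.11, adjusted p = 0.232) lay lower without overlap. Of 13 stellate markers only Gfap was called, and it fell, against 0.186% of all genes called lower. The mean was lower in reverted cells for all 13 as deposited, for 12 after quantile normalization and for 9 after median centring, and their median log2 change was -0.05 as deposited. Their mean per array was 13.17 to 13.23 in reverted and 13.26 to 13.32 in quiescent cells, so the groups did not overlap in this measure. Ngfr (-0.20, adjusted p = 0.176), Fcna (-0.11, adjusted p = 0.278) and Colec11 (-0.08, adjusted p = 0.31) also had groups without overlap. The part of these markers in the results for the 8 genes was not tested. Lrat (14.05 in reverted and 14.05 in quiescent cells) and Des (12.80 in reverted and 12.81 in quiescent cells) were high in both groups.

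The receptor itself and its partner did not pass the test. Ahr had log2 values of 9.44, 9.20, 9.15 and 9.12 in reverted cells and 9.06, 9.14, 9.29 and 9.36 in quiescent cells. The groups spanned nearly the same range, and the single highest value was that of reverted array 1. Reverted minus quiescent, the change was 0.01 log2 units (SE 0.08, limma adjusted p = 0.944), with a 95% interval from 0.89-fold to 1.15-fold.

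Arnt, the obligate partner of the receptor and of the hypoxia factors, had 12.18, 12.27, 12.20 and 12.22 in reverted cells and 12.18, 12.19, 12.18 and 12.23 in quiescent cells. The arrays of both groups lay within 0.1 log2 units of each other. The log2 change was 0.02 (SE 0.04, limma adjusted p = 0.761), with a 95% interval from 0.96-fold to 1.08-fold, the narrowest of the 7. Its mean lay at percentile 95.6 of all genes, and differences at such high signals may be understated.

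The feedback genes gave no call either. Ahrr, the repressor that competes with the receptor for Arnt and is itself a target, had 5.82, 5.69, 5.75 and 5.84 in reverted cells and 5.78, 5.82, 5.70 and 5.83 in quiescent cells. The quiescent arrays lay inside the range of the reverted arrays. Its log2 change was -0.01 (SE 0.05, limma adjusted p = 0.935), with a 95% interval from 0.92-fold to 1.07-fold. The probe set was dim, so a small change may not be detectable.

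Tiparp, which ADP-ribosylates the receptor, had 11.97, 12.12, 12.19 and 12.14 in reverted cells and 11.90, 12.19, 11.96 and 12.32 in quiescent cells. The quiescent arrays held both the lowest and the highest value. The log2 change was 0.01 (SE 0.09, limma adjusted p = 0.956), with a 95% interval from 0.87-fold to 1.17-fold. The mean of 22 immediate early genes, which respond to cell isolation, was 12.63 to 12.74 per array in reverted and 12.41 to 12.70 in quiescent cells. With that mean as a covariate the log2 change was -0.05 for Tiparp and 0.85 for Cyp1b1, where it describes the difference that chose the gene.

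Nqo1, the quinone reductase shared as a target by the AhR and NRF2, had 7.21, 7.18, 7.47 and 7.36 in reverted cells and 7.19, 7.14, 7.52 and 7.48 in quiescent cells. In both groups the arrays numbered 3 and 4 lay above those numbered 1 and 2, although the labels give these numbers no shared meaning. The log2 change was -0.03 (SE 0.10, limma adjusted p = 0.914), with a 95% interval from 0.84-fold to 1.15-fold.

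In all, 0 of the 7 pathway genes were called changed in limma, against 0.712% of all genes (142 of 19938; 0.527% higher and 0.186% lower in reverted cells, and 0.296% with a change of at least 1.5-fold), and 0 of them had an unadjusted p under 0.05, against 16.0% of all genes. None of the 7 had groups without overlap, against 8.73% of all genes (4.64% with reverted cells higher and 4.09% with them lower). Their median log2 change was 0.015, against -0.008 over all genes. All 7 intervals included 0, and the largest change inside any of them was 1.37-fold, for Cyp1a2. A p that misses the threshold does not show that a gene did not change. The intervals reflect the spread among these arrays and do not cover differences that dim or very high signals may understate.

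**Figure D3:**
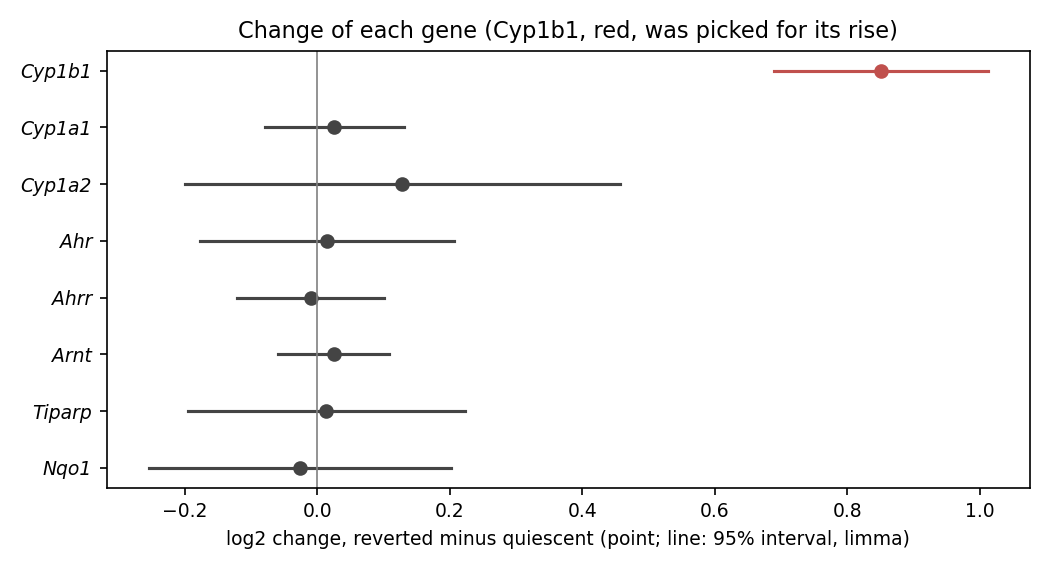
Log2 change of each gene, reverted minus quiescent (x; point), with its 95% interval from limma (line). The intervals of the 7 pathway genes (black) include 0, and Cyp1b1 (red), which was picked for its rise, is at 0.85. The line of Cyp1b1 is not a test, since this difference chose the gene.

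The wider pathway was followed in 10 lists with 170 measured genes outside the 8. Of these, 2 rose and 0 fell in limma, which is 1.18% against 0.712% of all genes, and the median log2 change was 0.015. The count was 0 when quiescent array 1 or 2 or reverted array 3 or 4 was left out, and 5 when quiescent array 4 was left out. It was also 0 with the hepatocyte covariate and 1 with the immediate early covariate. Both calls were in the list of other AhR target genes, where 2 of 21 measured members rose, 19 did not pass the test and the median log2 change was 0.02.

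Ereg, an EGF receptor ligand, had 9.39, 9.11, 9.46 and 9.56 in reverted cells and 8.14, 8.15, 7.52 and 8.64 in quiescent cells. All reverted arrays were above all quiescent arrays, with quiescent array 4 the closest. It rose 2.41-fold (log2 change 1.27, SE 0.20, limma adjusted p = 0.0276). The adjusted p lay between 0.0621 and 0.106 when quiescent array 1 or 2, or reverted array 1, 3 or 4, was left out. It was 0.066 with the hepatocyte mean as a covariate, and the log2 change was 0.88 with the immediate early gene mean (adjusted p = 0.0251).

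Ptgs2, the inducible cyclooxygenase, had 7.51, 7.42, 7.68 and 7.80 in reverted cells and 7.09, 7.18, 7.07 and 7.18 in quiescent cells. The groups did not overlap. It rose 1.39-fold (log2 change 0.47, SE 0.08, limma adjusted p = 0.0322). Its adjusted p lay between 0.0672 and 0.121 when quiescent array 1, 2 or 3, or reverted array 3 or 4, was left out. It was 0.0954 with the hepatocyte covariate and 0.205 with the immediate early covariate. Ereg and Ptgs2 are also known as inducible genes of growth factor and NF-kB signalling, and the part of any such signal in these values was not tested.

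Aldh3a1, an aldehyde dehydrogenase of the classical AhR gene battery, had 6.80, 6.85, 6.78 and 6.86 in reverted cells and 7.07, 6.99, 7.03 and 7.02 in quiescent cells. The reverted arrays were all below the quiescent arrays, but the gene was not called (log2 change -0.20, SE 0.04, limma adjusted p = 0.0516). With array weights it was called lower (adjusted p = 0.0366). The other 17 of 18 alternatives did not call it, with adjusted p up to 0.22. The flavin monooxygenase gene Fmo2 (0.46, adjusted p = 0.139) and Il1b (-0.15, adjusted p = 0.214) came next in that list.

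The proteins that hold, carry and assist the receptor gave no call. For this list and those below, 0 calls lie near the 0.712% of all genes called. Of 19 measured complex members and coregulators 0 passed the test, with log2 changes between -0.14 and 0.17, and the smallest p values were those of the coactivator Ncoa3 (0.17, adjusted p = 0.237), the estrogen receptor Esr1 (-0.14, adjusted p = 0.27) and the remodeller Smarca4 (0.11, adjusted p = 0.274). Of 15 other bHLH-PAS genes 0 were called. The clock gene Per3 was at 7.87 ± 0.10 in reverted and 8.34 ± 0.52 in quiescent cells (SD, adjusted p = 0.323). Its quiescent arrays 1 to 4 were at 7.93, 8.04, 8.30 and 9.08, so array 4 stood highest. The neural genes Npas4 and Sim1 were at -0.09 and -0.08. Log2 changes in this list ran from -0.47 to 0.52, with 6 means higher and 9 lower. Among 17 hypoxia targets, which use Arnt with HIF, 0 passed in limma. The hexokinase Hk2 came closest, with 8.41, 8.74, 9.31 and 9.40 in reverted cells and 7.91, 7.64, 7.72 and 8.17 in quiescent cells (log2 change 1.10, adjusted p = 0.0562). Its groups did not overlap, and it was called when quiescent array 4 (adjusted p = 0.0484) or reverted array 1 (adjusted p = 0.0289) was left out. It was also called with array weights (adjusted p = 0.0236) and without the lowest 25% (adjusted p = 0.0471) or the lower 50% of genes (adjusted p = 0.0469). The other alternatives did not call Hk2. The stress gene Ndrg1 (-0.24, adjusted p = 0.114) and the peptide gene Adm (0.45, adjusted p = 0.184) followed. Adm was called only when quiescent array 4 was left out (adjusted p = 0.0216).

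The NRF2 target list, which bears on Nqo1, had 0 of 23 measured members called, against 0.712% of all genes. Its median log2 change was -0.01. The aldo-keto reductase Akr1b8 (0.37, adjusted p = 0.101), the microsomal transferase Mgst1 (0.49, adjusted p = 0.186) and the exporter Abcc1 (0.17, adjusted p = 0.284) had its smallest p values. Akr1b8 was called only when quiescent array 3 was left out (adjusted p = 0.0347). Of 13 electron donors, membrane partners and heme synthesis genes, which P450 enzymes such as CYP1B1 depend on, 0 were called, against the same 0.712%. Their median log2 change was 0.03. The reductase Cyb5r3 (0.16, adjusted p = 0.221), Cyb5b (0.10, adjusted p = 0.323) and Urod (0.09, adjusted p = 0.43) came first among them.

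Enzymes that make receptor ligands from tryptophan gave 0 calls among 14 measured members, against 0.712% of all genes called. Kyat3 was at 0.21 (adjusted p = 0.182), Tdo2, a hepatocyte enzyme, at 0.27 (adjusted p = 0.287) and Ido1 at -0.13 (adjusted p = 0.299). The estrogen and eicosanoid enzymes and receptors around CYP1B1 gave 0 calls among 19, with the smallest p values for the estrogen-binding receptor Gper1, for Esr1 (-0.14, adjusted p = 0.27) and for Hsd17b4 (0.19, adjusted p = 0.313). Gper1 had 7.63, 7.60, 7.51 and 7.53 in reverted cells and 8.30, 8.01, 7.91 and 7.74 in quiescent cells (log2 change -0.42, adjusted p = 0.112), with no overlap between the groups. Of the alternatives, only array weights (adjusted p = 0.0435) and leaving out quiescent array 4 (adjusted p = 0.0419) called it lower. Of 15 PARP family genes related to Tiparp, 0 were called, and Parp3 (-0.23, adjusted p = 0.134), Parp10 (-0.16, adjusted p = 0.148) and Parp2 (0.14, adjusted p = 0.196) had the smallest p values.

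**Figure D4:**
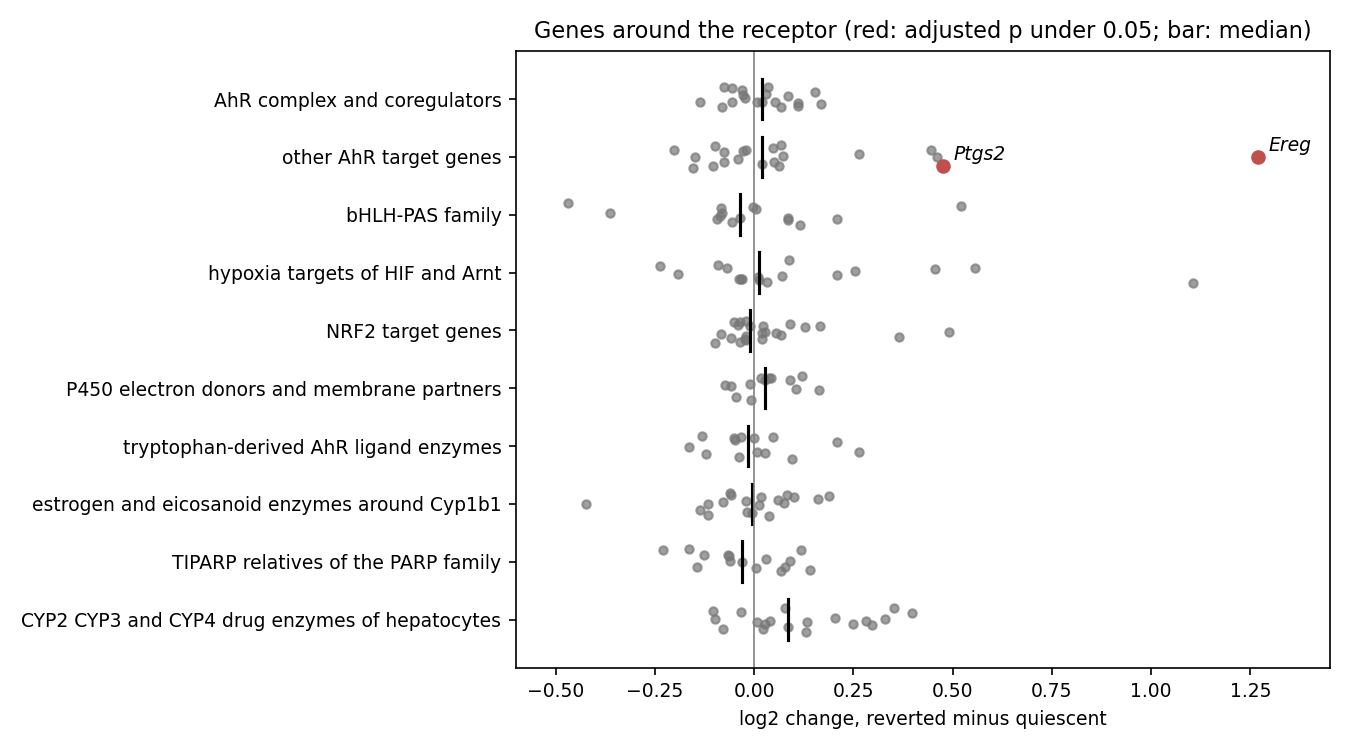
Log2 change, reverted minus quiescent (x), of each measured gene in the 10 pathway lists (rows; the 8 genes themselves are left out), with the median of each list as a bar. Ereg (1.27) and Ptgs2 (0.47), in red, were the 2 genes past an adjusted p of 0.05, and list medians lay between -0.04 and 0.09.

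The genes with the profile most like that of Cyp1b1 were ranked by the root mean square difference of log2 values over the 8 arrays, after each gene was centred on its own mean. The 5 nearest of 18269 named genes were Bmp6, a BMP ligand (0.14), Abcb11, the bile salt export pump of hepatocytes (0.17), Olfml2b, a secreted olfactomedin-like protein (0.17), the chemokine Cxcl14 (0.17) and Gda, a guanine deaminase (0.17). The median difference over all ranked genes was 0.45, and Cyp1b1 itself varied by 0.44 around its mean. The 7 pathway genes lay between 0.41 (Cyp1a2) and 0.50 (Nqo1), near the median. Bmp6 had 9.59, 9.49, 9.61 and 9.57 in reverted cells and 8.47, 8.87, 8.62 and 8.64 in quiescent cells. Its SD was 0.05 in reverted and 0.16 in quiescent cells, close to those of Cyp1b1, whereas its lowest quiescent array was array 1 and that of Cyp1b1 was array 4. Abcb11 had 7.95, 7.85, 7.79 and 7.64 in reverted cells and 6.82, 7.22, 7.07 and 7.03 in quiescent cells, so that its groups did not overlap. Since Cyp1b1 was picked for its rise, genes near it are risers by construction.

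**Figure D5:**
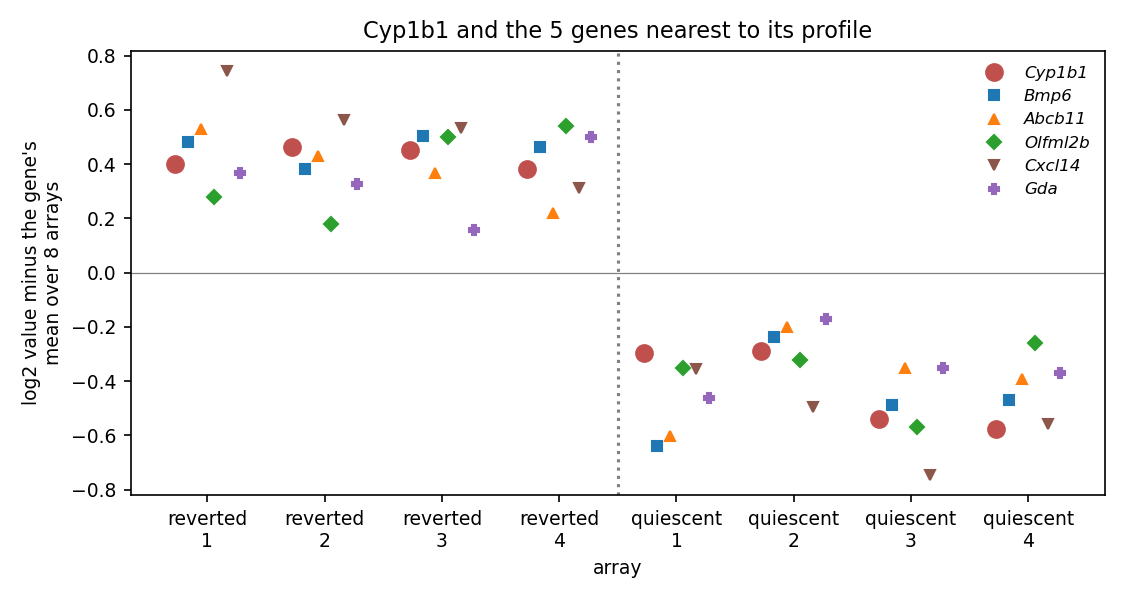
Log2 value minus the gene's own mean over the 8 arrays (y) on each array (x; 4 reverted left, 4 quiescent right) for Cyp1b1 (large red points) and the 5 genes nearest to its profile. All 6 genes lie above 0 on every reverted array and below 0 on every quiescent array.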

How the data were processed

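Hepatic stellate cells of 4 reverted and 4 quiescent preparations were profiled on a whole-transcript array from 150 ng of RNA each. Each deposited value is a log2 intensity that the authors computed by RMA, per the submitters' processing notes. For the RMA version, its settings and the build, the entry is: not given in the sources used here. Of 35556 probe sets, 21789 carried 1 symbol in the platform annotation, and the probe set with the highest mean was kept, which left 19938 genes. No filter was applied. Array medians were 7.66 to 7.74, correlations across genes between arrays were 0.995 or higher. Precision is limited by having 4 arrays a group.

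Groups were compared with limma 3.58.1 in R 4.3.3 (lmFit, eBayes, 2-sided, Benjamini-Hochberg over all genes, threshold 0.05), and the step was tested on simulated data. Tables were made with Python 3.11.15 and pandas 2.3.3. Quiescent array 4 had the lowest limma array weight (0.584). The text names the 8 genes, the 5 nearest profiles to Cyp1b1 and, per pathway list, each called gene and up to 3 others with the smallest p. Of the fixed markers and the marker lists, only some genes are named. The members and the 18 lists, of which 290 of 317 entries were measured, were chosen with earlier results of these data known. No label pairs equal replicate numbers, and the main comparison did not pair the samples. Alternatives were normalization, filters, probe set choice, variance model, array weights, the replicate block, marker covariates and leaving out each array.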

Additional observations from a re-analysis of the deposited data

Results flagged for a closer look

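For Arnt, quiescent array 4 stood apart from the other quiescent arrays, at 12.23 against 12.18, 12.19 and 12.18. The gap to the nearest array was 0.895 of the range of the 4, above Dixon's 95% critical value for 4 values. This was the only such case among 16 groups of 4 arrays, and chance alone marks about 5% of such groups.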

How the results depend on the processing

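Under the 19 alternatives none of the 7 pathway genes passed the threshold in any of 127 values, and the lowest adjusted p was 0.17. Cyp1b1 had log2 changes from 0.80 to 0.90, and the filter on the lower 50% of genes left it out. These values describe the difference that chose the gene and do not test it. Signs turned in 23 of the 127 values. Cyp1a2 was at -0.21 with the hepatocyte mean. Ahr was at -0.046 after quantile normalization and -0.0004 with the hepatocyte mean, and between -0.055 and 0.0624 without single arrays. Ahrr was at 0.0107 after quantile normalization and 0.0111 after median centring, and between -0.0376 and 0.0193 without single arrays. Tiparp was at -0.0041 after quantile normalization and -0.051 with the immediate early gene mean, and between -0.0512 and 0.0887 without single arrays. Nqo1 was at 0.0162 after quantile normalization, 0.0391 with array weights and 0.0513 with the hepatocyte mean, and between -0.0913 and 0.0371 without single arrays. The 2 calls among list genes became 5 with array weights, 1 with the immediate early gene mean, 0 with the hepatocyte mean and 0 to 5 without single arrays. Over all genes, 142 calls became 219 after quantile normalization, 306 with array weights, 77 with the hepatocyte mean, 36 with the immediate early gene mean and 54 to 247 without single arrays (54 without reverted array 4, 59 without reverted array 3, 73 without quiescent array 1 and 247 without quiescent array 4). The cause was not tested. Equal replicate numbers had correlations of deviations over all genes between -0.15 and 0.08. The labels give these numbers no shared meaning, and a shared batch was not tested. With the replicate block 63 genes and 0 list genes were called, and the log2 change of Cyp1b1, again the difference that chose it, was 0.85.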
